A study of Sus scrofa with 16 samples.

Results

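Chromatin regions outside coding promoters that carried an ATAC-seq peak in all 6 tissues of the newborn pig were examined. ATAC-seq inserts sequencing adapters into open DNA, and a peak is a stretch where inserted fragments pile up. The peaks of the heart, kidney, liver, lung, muscle and spleen lists of day 0 were pooled on chromosomes 1 to 18 of Sscrofa11.1, and overlapping intervals were joined into 243693 regions. A region was kept where peaks of all 6 lists overlapped it and where it lay outside the window from 2.2 kb upstream to 500 bp downstream of every start of a protein-coding gene. This left 9138 members of 221228 distal regions, or 4.13% (members were selected on the peak calls, so this share is a description). With promoters included, 19559 regions were called in all 6 tissues.

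The series held 16 libraries in 8 groups of 2 replicates, and the labels name no treatment. Per the paper, all pigs were female crosses of Berkshire and Tibetan, with 2 full sibs at each age. The groups were the 6 newborn tissues at day 0 and liver of suckling pigs (28 days) and of adult pigs (180 days). The newborn tissues came from the same 2 animals, and the authors deposited 1 merged peak list per group. Each tissue is a mixture of cell types, so a region open in a few cells and a region open weakly in many cannot be told apart. Of the marker genes looked up for each label, a promoter peak in the own list was found for 4 of 4 in heart, 4 of 5 in kidney, liver and lung, and 5 of 5 in muscle and spleen. The same markers had a promoter peak in 44% of the cases in the other newborn lists for muscle, 40% for liver, 25% for heart, 20% for spleen, 8% for lung and 4% for kidney. The lists held 57126 peaks in muscle to 133254 in kidney, and they carry no read counts. The number of reads in a call cannot be read from them, the library totals of the study were not used here, and a missing peak is no measurement of closed chromatin.

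Distal open regions are mostly known as enhancers, which differ between tissues, and as insulators, which are often shared. CTCF, a zinc finger protein, binds insulators and the ends of chromatin loops in most cell types, and the direction of its sites matters for loops. CpG islands are stretches rich in CpG dinucleotides that are usually accessible in all cells. Genes of transfer RNAs are read by RNA polymerase III from promoter elements inside the gene. Copies of mitochondrial DNA inserted in nuclear chromosomes can collect reads of mitochondrial origin, because the sequences are nearly alike.

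Sequences of members from each of these kinds are shown first, read 5′ to 3′ from the assembly. The first 4 hold a match to the CTCF consensus in capitals, with 20 bases to either side, written in the direction of the match. They lie at chr14:50051695-50051746 in an intron of PPM1F, at chr15:56314387-56314438 between genes with MFHAS1 nearest, at chr15:81881208-81881259 beside EVX2 in the HOXD cluster, and at chr1:7412489-7412540 within IGF2R. The matches in PPM1F, near MFHAS1 and beside EVX2 are on the minus strand and the one in IGF2R is on the plus strand. In the IGF2R member, the 200 bp around the peak summit held a match in only 2 of the 6 lists.
PPM1F: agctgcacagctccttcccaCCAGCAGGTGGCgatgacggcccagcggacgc
MFHAS1: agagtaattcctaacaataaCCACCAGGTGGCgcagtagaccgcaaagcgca
HOXD: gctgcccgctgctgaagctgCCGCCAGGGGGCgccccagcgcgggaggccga
IGF2R: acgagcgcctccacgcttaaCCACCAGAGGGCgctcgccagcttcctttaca

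A transfer RNA gene inside a member is shown with the annotated gene in capitals and 20 bases to either side. TRNAR-CCG, an arginine transfer RNA gene on the minus strand, is at chr3:39066500-39066612 with its flanks.
TRNAR-CCG: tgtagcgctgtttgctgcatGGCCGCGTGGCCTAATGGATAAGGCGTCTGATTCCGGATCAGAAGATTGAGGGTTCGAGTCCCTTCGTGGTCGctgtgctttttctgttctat

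Members of the CpG-rich kind are shown by the match of an ETS consensus at chr14:61688832-61688899 on the plus strand (nearest coding start HNRNPF) and of a YY1 consensus at chr14:108724785-108724853 on the minus strand (nearest coding start FRAT1). The last sequence is the strongest distal region of all 6 lists, the whole interval chr14:21808487-21808674 within SPOCK3 on the plus strand. Its capitals mark the 179 bases that aligned to positions 4015 to 4193 of the mitochondrial genome.
ETS match: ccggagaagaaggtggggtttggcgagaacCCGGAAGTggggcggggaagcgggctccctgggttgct
YY1 match: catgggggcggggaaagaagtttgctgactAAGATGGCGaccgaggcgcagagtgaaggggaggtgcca
SPOCK3: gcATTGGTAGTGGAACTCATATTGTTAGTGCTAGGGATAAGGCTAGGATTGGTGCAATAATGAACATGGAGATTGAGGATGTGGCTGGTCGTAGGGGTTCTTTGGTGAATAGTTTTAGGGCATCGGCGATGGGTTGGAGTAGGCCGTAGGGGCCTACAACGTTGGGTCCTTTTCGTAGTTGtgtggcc

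The members were wide and varied in strength. Their median width was 1015 bp (129 to 3347 bp), against 425 bp for the other distal regions, and together they covered 9857 kb. The strength of a peak is given as the smaller of its −log10 p values in the 2 replicates, and its percentile is its rank within its own list (100 is the strongest). The −log10 p values of different lists were not put on a common scale. The median percentile of members was 53.3 in muscle, 69.5 in lung, 69.7 in heart, 71.1 in spleen, 78.3 in liver and 83.2 in kidney. Muscle, with the shortest list, had the lowest median and kidney, with the longest, the highest, and the part of list length in this was not tested. A call is itself a threshold on strength, so these values carry no test.

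The same member often had unlike ranks in different tissues. The Spearman correlation of strength between 2 lists over the members ranged from 0.197 (liver and muscle) to 0.452 (kidney and liver) over 15 pairs of lists, given as a description because the lists share animals and regions. The median spread between a member's highest and lowest percentile was 59.8 points, and 1899 members (20.8%) were above the 50th percentile of all 6 lists. The highest percentile of a member was in kidney for 3346 members, in liver for 2048, in spleen for 1344, in lung for 975, in heart for 914 and in muscle for 511.

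The replicates behind the lists were uneven. Over the members, the median −log10 p was 8.66 in the first and 40.5 in the second replicate column of lung, and 50.7 and 19.8 in those of liver. In heart the medians were 15.2 and 14.2. The agreement of replicates is scored by the irreproducible discovery rate (IDR), and 518 members (5.67%) had an IDR of 0.05 or lower in all 6 lists while 859 (9.40%) reached it in none. In most members, therefore, at least 1 list had an IDR above 0.05.

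The rule also has a near boundary. Of the 8690 distal regions called in 5 tissues, 4957 (57.0%) lacked only the muscle list, 1239 only spleen, 1007 only lung, 627 only heart, 498 only liver and 362 only kidney. The list that was absent most often was the shortest one. Within the 9138 members, 294 were joined by a chain of overlaps and held no base covered by all 6 lists at once.

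A set of 11 members stood among the 100 strongest peaks of every list, and the rule marks these as likely copies of mitochondrial DNA. Their largest rank in any list was 35 at most, whereas the next member reached only rank 347 in its weakest list. Of the 11, 7 aligned to the mitochondrial genome. The strongest was the region in SPOCK3 shown above, ranked 1 in all 6 lists. Its −log10 p was 2261 in heart, 1247 in kidney, 1855 in liver, 1718 in lung, 3018 in muscle and 2436 in spleen, and its alignment had 97.8% identity. By −log10 p, muscle was the highest and kidney the lowest of the 6 lists here, although the rank was 1 in each.

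The other 6 aligned regions were 3 neighbouring intervals at chr9:4700032-4700714, chr9:4700922-4701268 and chr9:4701667-4701896 (98.2%, 98.3% and 98.7% identity), chr4:53952975-53954268 (98.3% over 1295 aligned positions), chr16:37934988-37935126 within PDE4D (99.3%) and chr15:126762112-126762848 (94.1% over 543 positions). In each of these, the −log10 p was higher in the muscle list than in the kidney list. The 4 regions without such an alignment were chr9:52841403-52842538, chr14:30530529-30530881 within LRRC43, chr7:10867822-10868342 and chr13:68477893-68478121. In the last 3 of these, spleen was the highest list (1401, 985.0 and 991.6 on the −log10 p scale) and muscle the lowest (281.5, 206.9 and 197.8). Among all members, 9 aligned to the mitochondrial genome, 2 of them outside the set of 11. Leaving the 11 out altered neither the direction nor the call of the tests of CTCF, GC, CpG, noncoding starts and soft-masked bases below, and of the 22 motifs compared below, RFX went from lower in 5 lists to lower in 6.

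The 10 strongest of the remaining members, by their lowest percentile over the 6 lists (98.3 to 99.5), included 9 intergenic regions. Of these 10, 6 had a CpG-rich summit window, 5 lay within 1 kb of the start of an annotated noncoding RNA gene, 1 aligned to the mitochondrial genome at chr9:4701970-4702174, and none held a CTCF match. The first was chr2:5480362-5481250, 11.6 kb from the start of C2H11orf86, with a −log10 p of 93.3 in heart, 147.3 in kidney, 164.7 in liver, 109.6 in lung, 141.3 in muscle and 291.6 in spleen. The second was chr15:132208975-132210196, 16.2 kb from NMUR1, with 88.3 in heart, 118.6 in kidney, 184.0 in liver, 102.4 in lung, 135.7 in muscle and 275.6 in spleen. On this scale, spleen was highest and heart lowest in both. By percentile, the highest list was kidney in the first (99.93, spleen 99.86) and liver in the second (99.95, spleen 99.79).

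**Figure D1:**
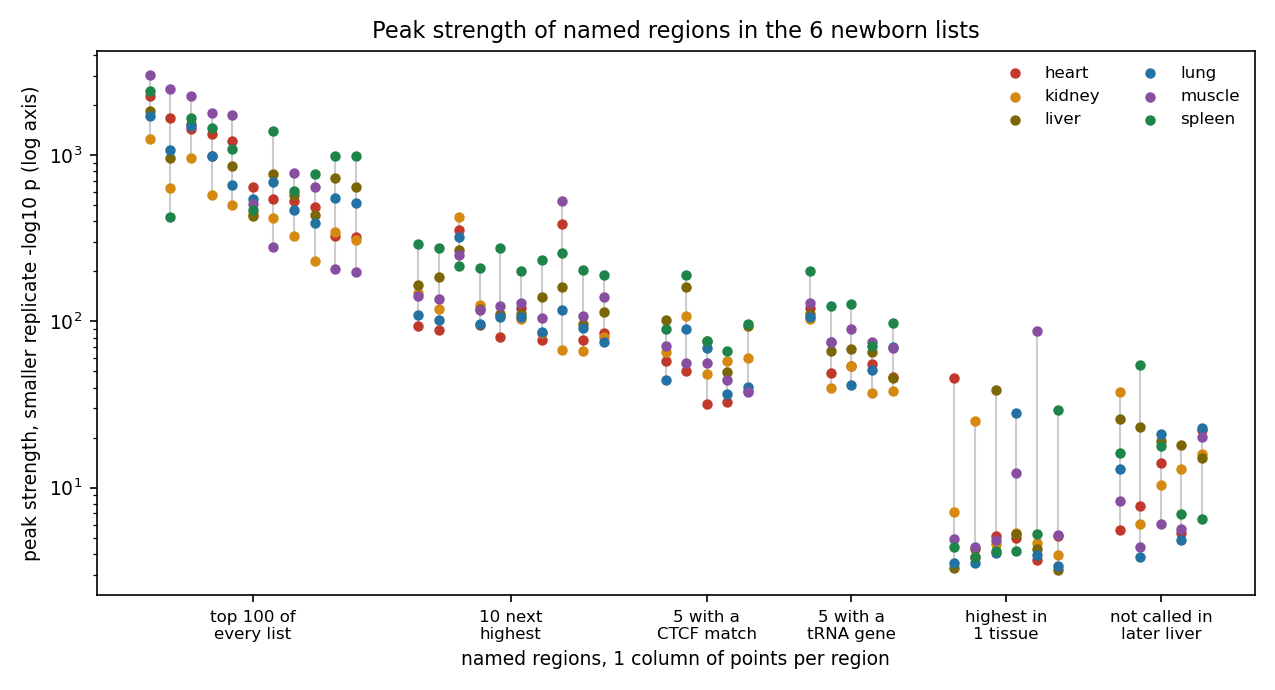
Each column of points is 1 named region and each point its peak strength in 1 newborn list, as the smaller replicate −log10 p on a log axis, with a line from the lowest to the highest list. The 11 regions in the top 100 of every list reached 3018 (muscle, the region in SPOCK3), and each region chosen for 1 tissue had 1 list far above most of the others.

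For each tissue, the member whose percentile there exceeded the mean of the other 5 by most was taken, as an example of unequal strength under a shared call. In muscle it was chr8:104741355-104742492, within SEC24D and SYNPO2 (SYNPO2 encodes an actin-binding protein of muscle), with a −log10 p of 87.65 in muscle and 3.67 to 5.28 in the other lists. In heart it was chr5:77066967-77068326 in an intron of SLC38A1, a glutamine transporter gene, with 45.76 in heart and 3.28 to 7.10 elsewhere. In kidney it was chr10:19851711-19852803 in an intron of TP53BP2, with 25.26 there and 3.52 to 4.42 elsewhere. These contrasts rest on the weaker replicate of each list. In the second replicate column, the region within SEC24D and SYNPO2 had 87.65 in muscle, 44.1 in heart and lower values elsewhere. The SLC38A1 region there had 49.4 in heart, 54.7 in liver, 45.2 in spleen and 43.6 in lung. The TP53BP2 region there had 43.7 in kidney, 51.7 in lung, 34.4 in liver and 3.82 to 4.42 elsewhere.

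The regions for the other tissues were chr5:50873139-50874510 in liver (38.86 against 4.04 to 5.11), chr13:207869743-207870948 in spleen (29.43 against 3.19 to 5.20) and chr1:100639157-100640397 in lung, where lung reached 28.29, muscle 12.29 and the others 4.14 to 5.34. The lung example was the least separated of the 6, with its percentile 59.7 points above the mean of the others, against 82.2 points for kidney. These contrasts also rest on the weaker replicate. In the first replicate column, the liver region had 297.7 in liver and 4.04 to 5.11 elsewhere. The lung region there had 28.3 in lung, 137.6 in liver and 4.14 to 12.3 elsewhere. In the second replicate column, the liver region had 38.9 in liver, 96.8 in spleen, 82.4 in lung, 53.6 in kidney and 17.1 to 17.5 elsewhere. The spleen region had 29.4 in spleen, 30.5 in lung and 3.19 to 11.8 elsewhere. The lung region had 95.6 in lung, 85.1 in spleen, 84.5 in kidney and 5.29 to 29.7 elsewhere.

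Members were placed differently from other distal regions. Of them, 4377 (47.9%, 95% Wilson interval 46.9 to 48.9) were intergenic, 3989 (43.7%, 42.6 to 44.7) intronic, 733 (8.02%, 7.48 to 8.60) in exons and 39 within 300 bp downstream of a gene. Among the 212090 other distal regions, 42.6% were intergenic, 52.4% intronic and 4.72% exonic. The intervals cover counting error only, and neighbouring regions are not independent. The median distance to the nearest coding start was 23.4 kb in members and 38.3 kb in others, and 1238 members lay over 100 kb from one.

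The density of members differed between chromosomes, from 2.43 per Mb on chromosome 8 to 8.69 per Mb on chromosome 12, against 4.03 per Mb over all autosomes. As a share of the distal regions of the chromosome, members ranged from 3.03% on chromosome 16 to 6.61% on chromosome 12. At least 1 member lay in 3151 of 18725 coding genes (16.8%). NFIA, which encodes a nuclear factor I transcription factor, held 12 members, the highest number, at chr6:150834002-151229773. C10H9orf3, GSE1 and SH3PXD2A (a scaffold protein of podosomes) held 11 each, TEX14 10, and IGF1R (the insulin-like growth factor 1 receptor), ARHGAP26, FRMD4A and SPIDR 9 each, followed by ARID1B, a subunit gene of the BAF chromatin remodelling complex, with 8. Of the 99 members in these 10 genes, 6 had a CTCF match at the median summit, against 1282 of all 9138 members (14.03%).

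Per Mb of gene, among genes longer than 100 kb, TEX14 (62.3 per Mb), RGS3 (52.6), GNG7 (52.1), ITPKB (46.9) and MPRIP (46.2) were densest. RGS3 and GNG7 encode a regulator and a subunit of heterotrimeric G proteins. The median of the 2751 genes of this length was 0.

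Of 20 loci known for insulators, developmental gene clusters or imprinting, 19 had a gene in the annotation, and 8 of these held 17 members among 399 distal regions. That is 4.26%, near the 4.13% of all distal regions. HOXB held 3 members among 32 distal regions, HOXD 3 among 28, HOXC 1 among 23 and HOXA none among 18. Differences between loci were not tested, and the counts per locus are small. The HOXD member with a CTCF match, chr15:81880895-81881491 next to the homeobox gene EVX2, had a −log10 p of 3.89 in heart, 5.60 in kidney, 4.20 in liver, 7.34 in lung, 4.08 in muscle and 3.94 in spleen. GNAS, GRB10 and IGF2R, which are imprinted in other mammals, held 2 members each, among 16, 41 and 38 distal regions. KCNQ1-CDKN1C held 3 among 83. IGF2 with INS, DLK1-MEG3, PEG3, PEG10-SGCE, MEST, PLAGL1 and NNAT held none, among 5 (PEG3) to 33 (DLK1-MEG3) distal regions each. H19 was not matched in the annotation, so its surroundings were not analysed here. The globin cluster of HBB and HBE1 held 1 member among 10 distal regions. This member, chr9:4827228-4827875, had a −log10 p of 107.9 in spleen, 16.5 in liver and 5.01 to 7.03 in the other 4 lists.

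Sequence was not used by the rule and could be tested. Within each list, members were compared with the other distal regions of the same list in 200 bp around the summit, and the 6 differences were tested by flipping their signs in every possible way (an exact permutation test, two-sided), whose smallest possible p with 6 lists is 0.031. The lists share their member regions and their animals, so this p says only that all lists pointed one way. The Benjamini-Hochberg adjustment ran over 5 measures.

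The CTCF consensus was more frequent in members in every list. The share of member windows with a match was 11.5% in heart, 13.97% in kidney, 14.07% in liver, 13.8% in lung, 12.5% in muscle and 13.9% in spleen. In the other distal regions it was 2.38%, 2.85%, 3.71%, 3.19%, 1.49% and 2.86% in the same order. Members and others did not overlap between any lists. The mean difference was 10.5 percentage points (SD 0.761, higher in 6 of 6 lists, exact p = 0.031, adjusted p = 0.031). In windows 1 kb to either side, the share was 0.177% for members and 0.161% for others. Members were above others on 18 of 18 chromosomes.

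By the number of tissues that called a region, from 1 to 6, the CTCF share was 0.527%, 1.47%, 3.18%, 5.15%, 8.13% and 13.3% (means over the lists, a description). Comparison with regions called in 2 to 5 tissues gave a difference of 9.31 points, and comparison within 5 bins of GC content 9.96 points. With only peaks at an IDR of 0.05 or lower the difference was 4.15 points, with 8.82% in the 518 members that remained and 4.67% in others.

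At the median of its 6 summits, 1282 members (14.03%) had a CTCF match, and 785 (8.59%) had one in the windows of all 6 lists. Allowing 1 mismatch gave 2946 members (32.2%). The autosomes held 13757 matches to the consensus, and 11.6% of them lay in members, which cover 0.435% of these chromosomes. Another 34.2% lay in other distal regions (4.69% of the chromosomes) and 6.51% in regions at promoters. The median distance between match and summit was 35 bp in members. Matches lay more often before than after the summit in the direction of the consensus, with 31.4 matches per 1000 summits at 40 to 20 bp before it and 19.7 at 20 to 40 bp after it.

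**Figure D2:**
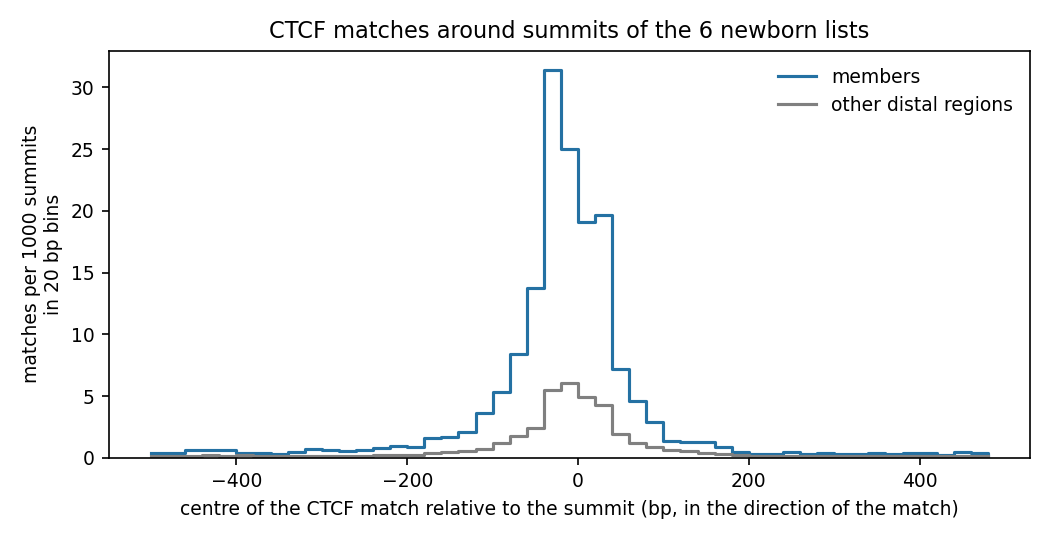
Matches to the CTCF consensus per 1000 summits in bins of 20 bp, by distance of the match from the summit in the direction of the match, for members and other distal regions over the 6 newborn lists. Both lines peak within 40 bp of the summit, members at 31.4 and others at 6.04 per 1000 summits.

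The strongest members with a CTCF match, by their lowest percentile, were led by chr14:50051111-50052444 in an intron of PPM1F, a protein phosphatase gene. Its −log10 p was 57.9 in heart, 65.7 in kidney, 102.2 in liver, 44.3 in lung, 71.6 in muscle and 90.1 in spleen, and the match lay in the windows of 3 of the 6 lists. The second, chr15:56314110-56315167, 114 kb from MFHAS1, had the match in all 6 windows, and its −log10 p was 50.2 in heart, 107.4 in kidney, 161.3 in liver, 89.8 in lung, 55.9 in muscle and 190.1 in spleen. The next 3 were chr3:26382469-26383410 near COQ7, chr4:93431352-93432083 near BCAN and chr7:47788162-47789042 near IDH3A, with lowest percentiles of 91.3, 90.2 and 87.6. The median lowest percentile was 26.9 over members with a CTCF match and 25.1 over all members.

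Neighbouring matches of members on a chromosome pointed toward each other in 24.8% of 1405 pairs (95% interval 22.7 to 27.2), away from each other in 25.1% (22.9 to 27.5) and the same way in 50.0%. Among the 105 pairs closer than 50 kb, 15.2% (9.60 to 23.3) pointed toward each other and 42 pairs (31.1% to 49.6%) away. No test over lists was possible because the pairs are the same in every list.

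The windows of members were also richer in G and C. The GC content was 57.9% in heart, 58.3% in kidney, 58.2% in liver, 58.3% in lung, 57.8% in muscle and 58.0% in spleen, and 50.7% (spleen) to 52.8% (kidney) in other distal regions. The groups did not overlap, and the mean difference was 6.50 points (SD 0.708, exact p = 0.031, adjusted p = 0.031). The ratio of observed to expected CpG was 0.485 on average in members and 0.311 in others, with a difference of 0.174 (SD 0.0113, higher in 6 of 6 lists, exact p = 0.031, adjusted p = 0.031). A CpG-rich window (GC of 50% or more and a ratio of 0.6 or more) was found in 2310 members (25.3%), against 5.01% of the others. Of the CpG-rich members, 17.2% lay in exons and 27.8% in introns, whereas 8.02% and 43.7% of all members did. A CTCF match at the median summit was present in 254 of the 2310 CpG-rich members, against 1282 of all 9138 members (14.03%).

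Soft-masked bases, written in lower case in the assembly by a masking method that was not checked here, made up 8.36% (heart) to 8.85% (spleen) of the member windows and 10.2% (heart) to 15.2% (spleen) of the others. The mean difference was -3.90 points (SD 1.84, lower in 6 of 6 lists, exact p = 0.031, adjusted p = 0.031). With members and others limited to those above the median strength of each list it was -2.11 points, lower in 5 of 6 lists, and no longer passed (adjusted p = 0.0625 by the same permutation test).

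The rule kept out coding promoters but not starts of noncoding RNA genes. The share of summits within 1 kb of such a start was 4.47% (muscle) to 4.61% (lung) in members and 1.13% (kidney) to 1.25% (lung) in others, a mean difference of 3.34 points (SD 0.0460, higher in 6 of 6 lists, exact p = 0.031, adjusted p = 0.031). In all, 414 members (4.53%) were that close, 329 of them to a long noncoding RNA gene, 71 to a transfer RNA gene, 12 to a microRNA gene and 8 to another RNA gene. With all annotated starts excluded in the same way as coding ones, 8620 members remained and the difference was 0.00397 points, which follows from the construction.

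Transfer RNA genes made up a small class of members. Of 440 transfer RNA genes on the autosomes, 106 (24.1%) overlapped a member, 59 lay in regions at coding promoters, 68 in distal regions of 1 to 5 tissues and 207 in no newborn peak. The 106 genes shared 71 members. By distance, 0.777% of members and 0.0443% of others were within 1 kb of a transfer RNA start. A strong member of this class, chr4:88965510-88966989, holds TRNAG-UCC and TRNAL-CAG, a glycine and a leucine transfer RNA gene. Its −log10 p was 48.8 in heart, 39.99 in kidney, 66.5 in liver, 74.9 in lung, 75.5 in muscle and 123.5 in spleen. By −log10 p, spleen was above the other 5 lists and kidney was the lowest. By percentile, lung was the highest list (98.28, spleen 96.90) and kidney again the lowest (95.01).

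The lowest percentile over the 6 lists was 95.01 for this member, 94.6 for the one with TRNAR-CCG (shown above) at chr3:39066262-39067476, 94.0 for the one with TRNAL-UAA at chr1:21112848-21114589 and 93.8 for the one with TRNAE-UUC at chr1:141309984-141310880. Over the 71 members, the median lowest percentile was 40.7, against 25.1 over all members.

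Consensus sequences of 22 factors were compared in the same windows on both strands, 12 of factors present in most cells and 10 of factors tied to particular tissues. CTCF, NRF1 and REST were searched with ambiguous letters. No motif passed after adjustment over the 22 in the exact permutation test, since 11 had the smallest possible p (0.031, before adjustment) and their adjusted p was 0.0625. CTCF therefore passed in the family of 5 measures and not in the family of 22. With only peaks at an IDR of 0.05 or lower (518 members), 16 motifs had this smallest p. The adjustment is milder when more motifs are tied, and 9 then passed as higher and 7 as lower. Passing there does not mean a larger difference, and that of CTCF was 4.15 points. Some of the 7 had almost no match in members (HNF1 0%, HNF4 0.0322%, MEF2 0.193%). The directions over the lists are given below as a description.

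A set of 8 motifs was more frequent in members in 6 of 6 lists. Besides CTCF these were SP (GGGGCGGG, SP and KLF zinc fingers, 9.72% in members and 2.72% in others on average), NFY (a CCAAT box of 7 letters in 4 forms, CCAATCA as well as CCAATCG as well as CCAATGA as well as CCAATGG, 8.69% and 5.91%), USF (GTCACGTG, 1.295% and 0.744%), ETS (CCGGAAGT, 1.15% and 0.341%), CREB (TGACGTCA, 1.10% and 0.335%), NRF1 (1.06% and 0.0856%) and YY1 (AAGATGGCG, 0.294% and 0.0573%). These factors are known to bind promoters and CpG islands in most cells. In windows 1 kb to either side of the member summits, the share was 2.31% for SP, 5.91% for NFY and 0.329% or lower for the other 5. All 8 were also higher in 6 of 6 lists within 5 bins of GC content, where the SP difference was 4.56 points in place of 7.002. RFX (GTTGCCAT), REST and ZNF143 (ACTACAATT) had mean shares under 1% in both and mixed directions.

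The consensus of GATA factors (AGATAAG), that of HNF1 (GTTAATNAT) and that of NKX2 factors (CACTTGA) were less frequent in members in 6 of 6 lists, and within 5 bins of GC content this held in 4, 5 and 4 lists. The GATA share was 1.41% (muscle) to 1.80% (heart) in members and 1.65% (muscle) to 5.30% (heart) in others. GATA factors act in heart, blood and endoderm. HNF1, a factor of liver and kidney, was at 0.153% to 0.252% in members, and in others reached 1.71% in kidney and 1.31% in liver.

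For other tissue factors the sign differed between lists. The share in members was nearly level over the lists, and the share in others was highest in lists of particular tissues. The MYOD consensus (CAGCTG, an E-box of myogenic factors and their relatives) was in 20.6% (liver) to 23.3% (muscle) of member windows, and in 17.0% (liver) to 30.7% (muscle) of others. The SPI1 consensus (GAGGAAGT, a blood cell factor, sharing GGAAGT with the ETS consensus) was in 2.35% to 3.02% of member windows and in 1.15% (muscle) to 5.78% (spleen) of others. FOXA (TGTTTAC), a factor of endoderm, was at 2.88% to 3.50% in members, and in others at 5.23% in liver, 5.88% in lung and 2.55% to 2.97% elsewhere. With only peaks at an IDR of 0.05 or lower, MYOD, FOXA, MEF2 and HNF4 were lower in members in 6 of 6 lists. MEF2 (CTAAAAATA) was at 0.613% to 0.952% in members, and in others at 2.17% in heart, 2.10% in muscle and 0.419% to 0.851% elsewhere. AP1, TEAD, HNF4 (CAAAGTCCA) and CEBP (TTGCGCAA) also had mixed directions. The SD over the lists was 0.932 points in members and 4.95 in others for MYOD, and 0.247 and 1.62 for SPI1. The member windows are the same regions in all lists, and their level share follows in part from that.

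**Figure D3:**
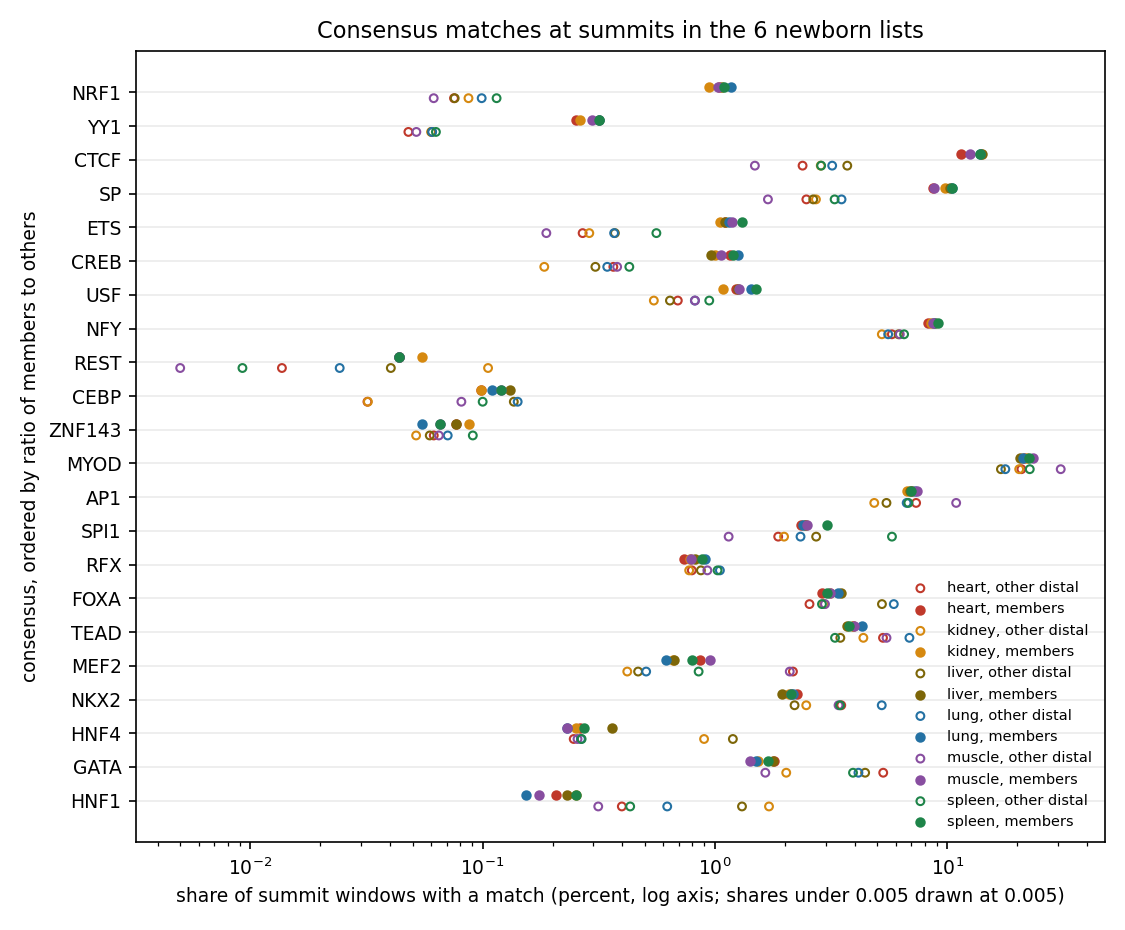
Share of 200 bp summit windows with a match for 22 consensus sequences, on a log axis, with 1 filled point per newborn list for members and 1 open point for other distal regions. The filled points of a motif lie close together, while the open points of GATA, HNF1, MYOD, SPI1 and MEF2 spread with the tissue, and for CTCF, NRF1, SP, ETS, CREB and YY1 all filled points lie to the right of all open ones.

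Most members were outside the CTCF, CpG-rich and noncoding classes. Other motifs were not counted for this, and the CTCF match had to be exact. No CTCF match at the median summit, no CpG-rich window and no noncoding start within 1 kb was found for 5639 members (61.7%). Of these, 50.5% lay in introns, and their median GC was 55.5%.

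Liver at 28 and 180 days was not used by the rule and served as a readout at later ages. Of the members, 8787 (96.2%, 95% Wilson interval 95.7 to 96.5) were overlapped by a peak at 28 days, against 73.5% of all 93505 distal regions of newborn liver. At 180 days it was 8390 (91.8%, 91.2 to 92.4), against 63.3%. Both ages called 8238 members (90.2%, 89.5 to 90.8), against 56.2% of all distal newborn liver regions and 52.5% of those that were not members. With 2 later lists no test is possible (the smallest exact p would be 0.5), and the intervals cover counting error only.

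By the number of newborn tissues, from newborn liver alone to all 6, the share called at both ages was 42.8%, 49.3%, 57.9%, 64.5%, 76.3% and 90.2%. Strength differed as well, so the comparison was repeated within 4 equal bins of newborn liver strength. From the weakest to the strongest bin, 75.1%, 72.7%, 84.4% and 97.7% of members were called at both ages, and 28.3%, 40.2%, 62.1% and 86.9% of others. Members were above others in each bin and the gap was widest in the weakest. Because members are wider, the overlap was also asked of the newborn liver summit alone (chosen after the data were seen), which gave 87.7% of members and 50.2% of others.

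Members with a CTCF match at the newborn liver summit were called at both ages in 1237 of 1286 cases (96.2%), and members without one in 89.2% of 7852 (88.5 to 89.8). In other distal regions these shares were 60.2% and 52.3%. Members with a transfer RNA gene were called at both ages in 65 of 71 cases (91.5%, 82.8 to 96.1) and CpG-rich members in 93.8%. Members outside the CTCF, CpG-rich and noncoding classes were called at both ages in 87.7%.

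**Figure D4:**
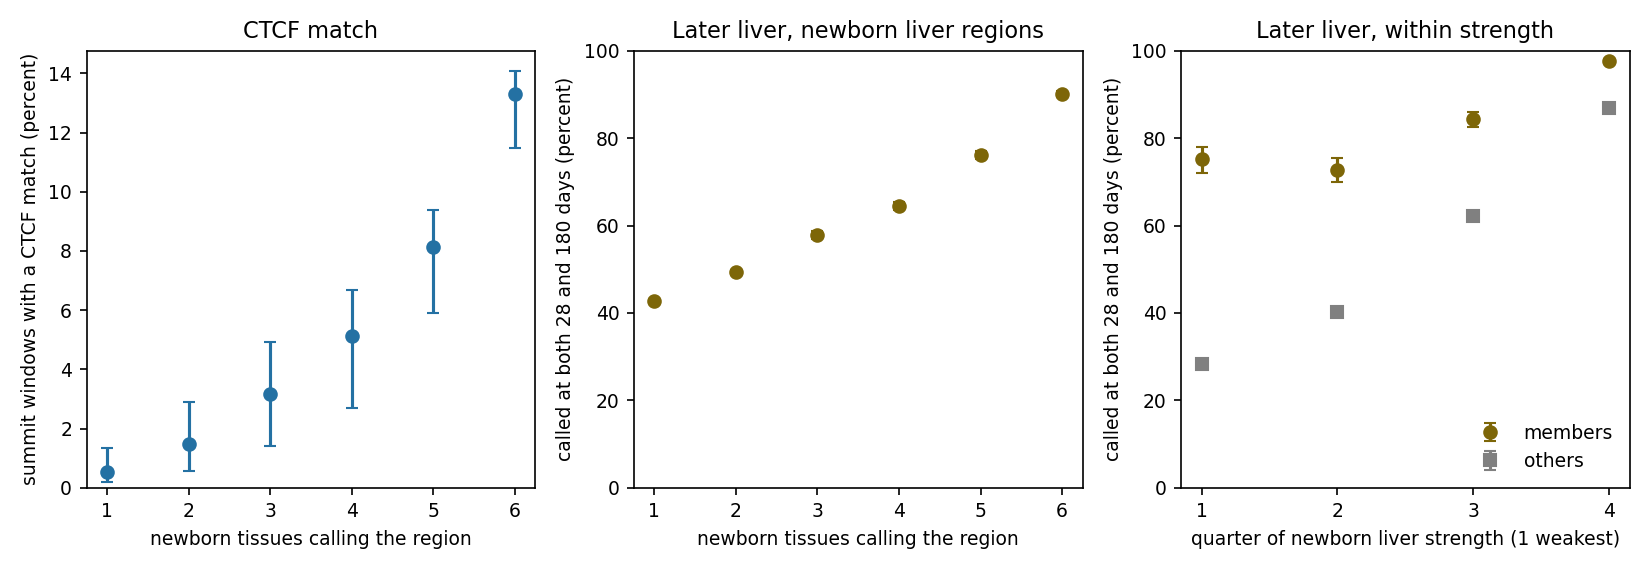
Left, share of summit windows with a CTCF match by the number of newborn tissues calling a distal region, with the mean and the range over the 6 lists. Middle, share of newborn liver distal regions called in liver at both 28 and 180 days by the same number, with 95% Wilson intervals. Right, the same share within 4 bins of newborn liver strength for members and others. The values go from 0.527% to 13.3% and from 42.8% to 90.2%, and members lie above others in all 4 bins.

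Neither later list called 199 members (2.18%). The member with the highest newborn liver rank among them was chr4:129292405-129293191, 33.7 kb from SELENOF, with a −log10 p of 5.56 in heart, 37.5 in kidney, 25.7 in liver, 12.9 in lung, 8.36 in muscle and 16.1 in spleen. Next came chr1:166366283-166367252 near ITGA11, an integrin gene, with 54.4 in spleen, 23.3 in liver and 3.83 to 7.76 in the others. The other 3 were chr1:145932548-145934170 near NFATC1, chr7:22306436-22307400 near GPX5 and chr9:35959752-35960088 near LOC102163011. Beside these, 549 members were called only at 28 days and 152 only at 180 days.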

How the data were processed

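Per the study's methods, ATAC-seq of 16 libraries was aligned to Sscrofa11.1 with Bowtie2, mitochondrial, low-quality and duplicate alignments were removed with SAMtools 1.3.1, and peaks were called per replicate with MACS2 and matched between the 2 replicates with IDR. The authors deposited 1 merged list per group, with the −log10 p value of each replicate and of the merged peak (the smaller of both) and a score for the IDR (540 at an IDR of 0.05). Columns of signal and q-value held a constant and were not used.

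Regions were built with Python 3.11.15, numpy 2.4.6 and pandas 2.3.3, with starts of genes from the RefSeq annotation of the same assembly. Each region was represented in a list by its strongest peak. Matches were exact on both strands, alignments used blastn 2.17.0, and intervals are Wilson intervals at 95%. The 6 newborn lists were compared by exact sign-flip permutation tests. The procedures were tested on simulated data. Members, motifs, loci and tests were chosen with earlier results of these data known. Named regions were those in the top 100 of all lists, the 10 next by lowest percentile, 5 with a CTCF match, the most unequal per tissue, 5 absent from later liver and 5 with a transfer RNA gene, and named genes the 10 with most members, also per Mb. The alternatives tried are given with their effect at the end. The 2 replicates of a group were 2 animals, joined in each list. Scaffolds and sex chromosomes were left out of the comparisons. The values of 1 member with a transfer RNA gene are not reported here.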

Additional observations from a re-analysis of the deposited data

Results flagged for a closer look

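For 5 motifs, the difference between members and other distal regions had opposite signs in different tissues, with 95% intervals (counting error only) that excluded 0 on either side. The difference between tissues was not tested. MYOD was at -7.48 percentage points in muscle (-8.48 to -6.47) and at 3.61 in liver (2.75 to 4.49). AP1 (TGACTCA) was at -3.48 in muscle (-4.10 to -2.82) and at 1.84 in kidney (1.33 to 2.39). SPI1 was at -2.75 in spleen (-3.14 to -2.34) and at 1.34 in muscle (1.01 to 1.70). TEAD (CATTCCA) was at -2.56 in lung (-3.02 to -2.08) and at 0.490 in spleen (0.0880 to 0.926). MEF2 was at -1.30 in heart (-1.52 to -1.05) and at 0.237 in kidney (0.0850 to 0.429).

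Data outside the comparisons also held regions open in all 6 newborn lists. Chromosome X had 180 of 5304 distal regions (3.39%), and unplaced scaffolds had 347 of 3114 (11.14%), where promoters were not removed.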

How the results depend on the processing

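Of 111 values under alternative settings, 92 were rated unchanged, 7 lost significance, 1 (the number of motifs passing) rose and none reversed. Another 11 values without a test moved beyond their interval or, for member counts, by over 1.5 times. For tested measures, unchanged means the same direction and side of the threshold. For values without a test it means within those limits, and for the number of motifs passing an equal number. Some of the 92 moved in size. The 92 include the values from the replicate columns, which rest on the same matched peaks and are no independent check. With only peaks at an IDR of 0.05 or lower, 518 members remained, and the gap to others in later liver was 22.4 points. There 9 motifs passed as higher and 7 as lower, because 16 in place of 11 were tied at the smallest p. The CTCF difference was then 4.15 points, that for noncoding starts 9.15, for CpG 0.311 and for soft-masked bases -2.43. With 1 mismatch allowed, the CTCF difference was 20.6 points. With the same number of top peaks in every list there were 4182 members, 95.9% of them called at both later ages, a gap of 18.8 points. Without the muscle list, the shortest, 14100 regions qualified, with 86.2% and a gap of 35.3 points. The smallest p with 5 lists is 0.0625, so no test can pass there: CTCF 9.76 points, GC 6.23, CpG 0.152, noncoding starts 2.52 and soft-masked bases -4.06, with the same sign in every list. With starts of all genes excluded, the difference for noncoding starts was 0.00397. Above the median strength of each list, soft-masked bases were at -2.11 and the gap in later liver at 21.0 points, and against regions of 2 to 5 tissues it was 31.9 points. By the newborn liver summit, 87.7% of members were called at both ages.

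With the coordinates and strengths of either replicate column in place of the merged ones, members numbered 9115 to 9135. Both columns describe peaks already matched between the replicates, so a nearly equal count was built in. It cannot show how many members the peaks of a single replicate would give. No paired analysis was possible because the tests compare regions within a list and the labels do not tie the replicate columns to animals. The lists hold no read counts, and the library depths that the study gives were not set beside them.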
